A study of Mus musculus with 14 samples.

Results

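The genes described are 8 that mark alveolar macrophages, the resident phagocytes of the lung's air spaces: Marco, Chil3, Ear1, Ear2, Fabp1, Siglecf, Plet1 and Pparg. They were taken by symbol from the 55416 genes listed for each library, and all 8 were found. They were chosen by name as known markers, with earlier results of these data known. Bulk RNA of lung and of gastrocnemius (calf) muscle was sequenced from male C57BL/6NCrlOri mice that were 6 to 8 weeks old. Tumour-bearing mice (TB) had received cells of the line KrasIKKaL into the trachea. For the controls (CON), the sources used here name no injection or other treatment. There were 3 control and 5 tumour-bearing lung libraries, and 3 control and 3 tumour-bearing muscle libraries. The study sought targets relevant to cachexia, the wasting of muscle in cancer, and to muscle side effects of immunotherapy. The tumour cells are 1 named line, delivered to the lung itself, so tumour-bearing lung is a mixture of tumour and host tissue. Separate animals for the libraries of a group are not stated, and the spread that p-values rest on is therefore that between samples and may be technical.

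Alveolar macrophages settle in the lung early in life, renew themselves there and clear surfactant and inhaled particles. Granulocyte-macrophage colony-stimulating factor (GM-CSF, gene Csf2) from the alveolar epithelium and the growth factor TGF-beta drive their identity, with the nuclear receptor PPAR-gamma (Pparg) as a central factor that also governs their lipid handling. Among the other members, Marco is a scavenger receptor that binds bacteria and particles, and Siglecf is a sialic acid receptor carried by alveolar macrophages and eosinophils. Ear1 and Ear2 are eosinophil-associated ribonucleases, and Chil3 (Ym1) is a secreted chitinase-like lectin that neutrophils and alternatively activated macrophages also make. Fabp1 is a fatty acid binding protein best known from liver and intestine. Plet1 is a surface protein also found on several epithelia.

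Ear1 and Ear2 are close relatives whose RNA nevertheless behaved differently in these libraries, so their sequences are shown first. Over the aligned coding sequence of the reference transcripts (GENCODE), 448 of 471 positions were identical (95.1%) and 23 differed. A stretch from coding base 285 holds 8 of those differences, which are in capitals, including 3 bases that Ear1 lacks.
Ear1 coding: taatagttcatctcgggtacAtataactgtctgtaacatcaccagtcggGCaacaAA
Ear2 coding: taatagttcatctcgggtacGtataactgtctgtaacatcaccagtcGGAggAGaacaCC
The 250 bases before each gene's start, from RefSeq (GRCm38.p6), were closer still. They lie at chr14:43819640-43819889 on the minus strand for Ear1 and at chr14:44102404-44102653 on the plus strand for Ear2. Of 252 aligned positions 246 were identical (97.6%). Capitals again mark what differs, which is 2 substituted positions and 4 bases at the ends without a partner.
Ear1 upstream: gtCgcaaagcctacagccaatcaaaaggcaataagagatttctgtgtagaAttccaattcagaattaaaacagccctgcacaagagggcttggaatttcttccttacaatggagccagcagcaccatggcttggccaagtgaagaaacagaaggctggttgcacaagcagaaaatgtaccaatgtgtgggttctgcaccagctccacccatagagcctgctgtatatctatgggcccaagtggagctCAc
Ear2 upstream: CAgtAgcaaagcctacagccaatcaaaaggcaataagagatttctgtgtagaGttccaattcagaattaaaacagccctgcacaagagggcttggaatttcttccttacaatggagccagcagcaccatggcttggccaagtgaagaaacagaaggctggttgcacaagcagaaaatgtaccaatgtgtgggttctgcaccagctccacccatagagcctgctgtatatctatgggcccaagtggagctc

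Because RSEM divides reads that match several genes, exact sharing of 100-base windows, the length of a read, was counted for each member against all other reference transcripts. Marco, Fabp1, Siglecf and Pparg shared none. Ear1 shared 23.9% of its windows, with Ear10 and Ear-ps9, and Ear2 shared 13.9%, with Ear10 and Ear-ps2. No window was shared between Ear1 and Ear2. Ear10 and Ear-ps9 were listed at 0 in all 14 libraries, and Ear-ps2 had 2 counts in all, both in control lung. Chil3 shared 4.93% of its windows with Chil4 and Gm6522, and Chil4 reached at most 5.63 TPM in any library. Plet1 shared 4.76% with its antisense gene Plet1os, which ran from 0 to 0.37 TPM in lung. In muscle Plet1os was the more abundant of the pair, at 0.28 to 4.85 TPM beside 0.01 to 0.15 TPM of Plet1. The kit keeps strand, but no source used here says whether the counting used it, so in their shared windows reads of the pair may not be told apart. Values of Ear1, Ear2 and Chil3 carry some uncertainty from this sharing.

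In control lung the members spanned a wide range of abundance, here in TPM (a level corrected for transcript length and scaled to a common library total, which can be compared between genes). Chil3 was the most abundant at 850 ± 487 TPM (mean ± SD, n = 3), followed by Ear2 at 190 ± 30.4 and Ear1 at 67.5 ± 8.83. Plet1 followed at 49.8 ± 1.39, then Fabp1 at 23.4 ± 4.44. Pparg at 9.04 ± 0.508, Marco at 6.53 ± 0.305 and Siglecf at 4.8 ± 0.915 were the lowest. Neighbours in this order did not overlap in any case, although Chil3 came near Ear2 in 1 library (289 TPM beside a highest Ear2 value of 211). The 289 TPM came from control 1, and the other two controls held 1106 and 1156 TPM of Chil3.

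All 8 members were higher in control lung than in control muscle by edgeR's quasi-likelihood test on all 14 libraries, where 37.9% of the 19834 genes tested were higher. The genes were picked as known markers of a lung cell, so this is a check of the label. Marco, Ear1, Fabp1 and Siglecf had 0 counts in all 3 control muscle libraries. Their mean levels in lung were set against a floor of 3 counts per muscle library, which covers counting error only. By this, Ear1 was on average at least 299-fold higher in lung, Marco at least 93.8-fold, Siglecf at least 93.4-fold and Fabp1 at least 71.2-fold. Chil3 had 1 count in each control muscle library and a log2 difference of 13.21 towards lung (SE 1.61, adjusted p = 7.7e-06). Plet1 was higher by 8.08 (SE 0.67, adjusted p = 2.07e-07) and Ear2 by 5.81 (SE 0.69, adjusted p = 5.78e-06). Pparg, which many tissues use, was higher by only 1.55 (SE 0.45, adjusted p = 0.0079). Bulk tissue does not tell which cells held these transcripts.

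In tumour-bearing lung the members split. Fabp1, Ear1, Siglecf and Ear2 were lower, Plet1 was higher, and Marco, Chil3 and Pparg did not pass the test. Fewer cells of a type and less RNA per cell cannot be told apart in bulk RNA. Of the 8 members tested, 5 were called, against 59.7% of the 19300 genes tested in lung, so a call as such is common here. Lower calls numbered 4 of 8 beside 29.3% of all genes, and higher calls 1 of 8 beside 30.4%. The lower calls include Fabp1, which passed the filter on low counts only through the controls. Groups did not overlap for 5 of 8 members, beside 63.0% of all genes. The members' median log2 change was -1.5 and that of all genes 0.07.

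**Figure D1:**
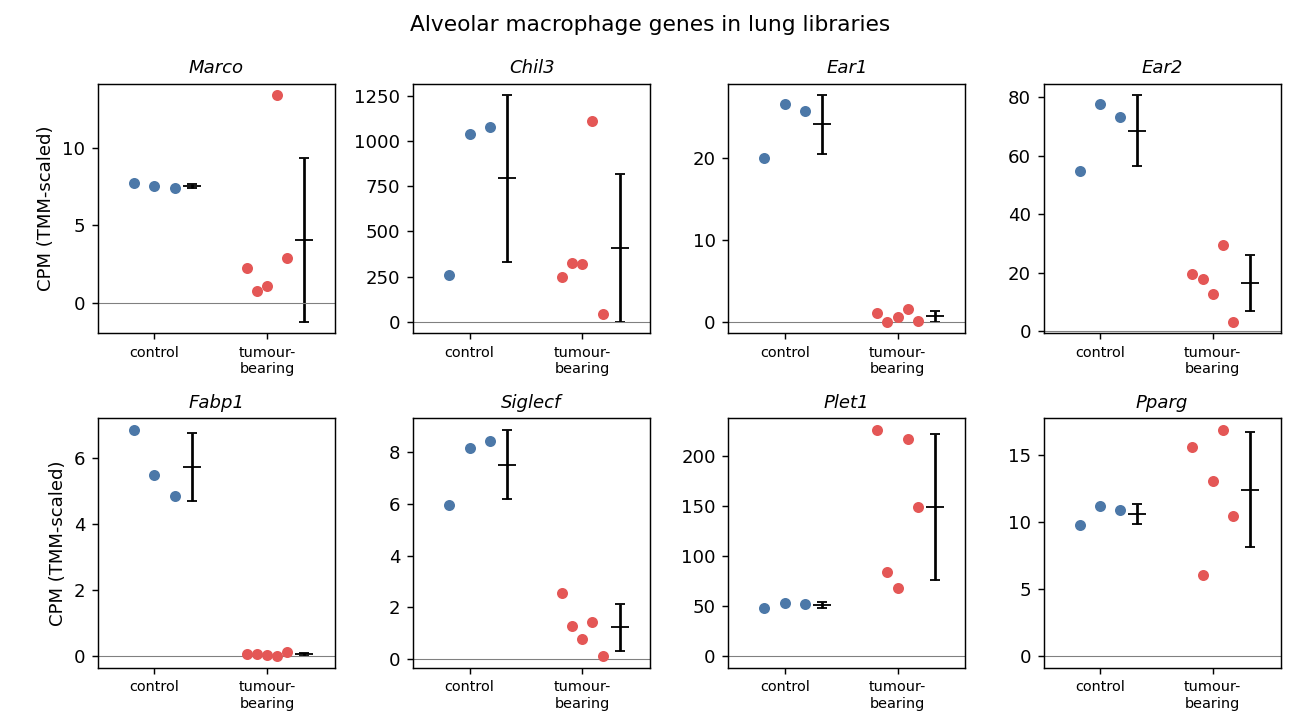
Level of each member in the 3 control (blue) and 5 tumour-bearing (red) lung libraries, in TMM-scaled CPM on linear axes that differ between panels, with black marks for the mean ± SD. Fabp1, Ear1, Ear2, Siglecf and Plet1 do not overlap between groups, and 1 tumour-bearing library stands high for Marco (13.4 CPM) and Chil3 (1110 CPM).

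Fabp1 had the lowest log2 change of the members in the edgeR fit, while with limma on log2(TPM + 1) Ear1 was lower (-5.09 beside -4.37). Its CPM (counts relative to the TMM-scaled library size) were 6.87, 5.49 and 4.85 in the control libraries and 0.0818, 0.0595, 0.0341, 0 and 0.122 in the tumour-bearing ones. Every tumour-bearing library held 5 counts or fewer, where the controls held 267 to 422. The log2 change was -6.56 (SE 0.64, adjusted p = 4.15e-05), a 94.3-fold lower level that rests on 15 tumour-bearing counts in all. Fabp1 passed the filter on low counts only through the controls, which fixed its direction. Liver and gut genes moved the other way in these same libraries. All 11 markers of gut and liver epithelium were higher, with a median log2 change of 9.14, and their summed level went from 3.14 to 3.55 TPM in control to 512 to 2980 TPM in tumour-bearing lung. Of these, Apoa4, Cdx2, Fabp2, Fgb and Ttr had 0, 1, 7, 12 and 13 counts over the 3 controls. They passed the filter on low counts only through the tumour-bearing group, which fixed their direction. Hnf4a, a master regulator of liver and gut epithelium, rose by 7.77 (adjusted p = 7.05e-07). Fabp2, the intestinal relative of Fabp1 and both a gut marker and a relative of the members, rose by 6.94 (SE 1.04, adjusted p = 0.000442), from 0.07 to 7.17 TPM on average. Fabp1 thus ended below Fabp2, having been the more abundant of the pair in control lung.

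Ear1 was at 20, 26.6 and 25.7 CPM in control lung and at 1.05, 0, 0.596, 1.51 and 0.0489 CPM in tumour-bearing lung. Its log2 change was -5.22 (SE 1.04, adjusted p = 0.00219). Ear2, in the same order, was at 54.8, 77.8 and 73.2 CPM and at 19.7, 17.8, 12.8, 29.4 and 3.23 CPM. Every tumour-bearing library was below every control for both genes. The log2 change of Ear2 was -2.05 (SE 0.52, adjusted p = 0.00803). The ratio of Ear1 to Ear2 in TPM was nearly constant in control lung, at 0.357 ± 0.0125 (n = 3, from 0.345 to 0.37). In tumour-bearing lung it was 0.0336 ± 0.0246 (n = 5) and reached at most 0.0539, so the groups were far apart. Ear2 RNA persisted where Ear1 RNA was nearly gone: tumour-bearing library 2 had 897 counts of Ear2 and 0 of Ear1, which allows up to 3.

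**Figure D2:**
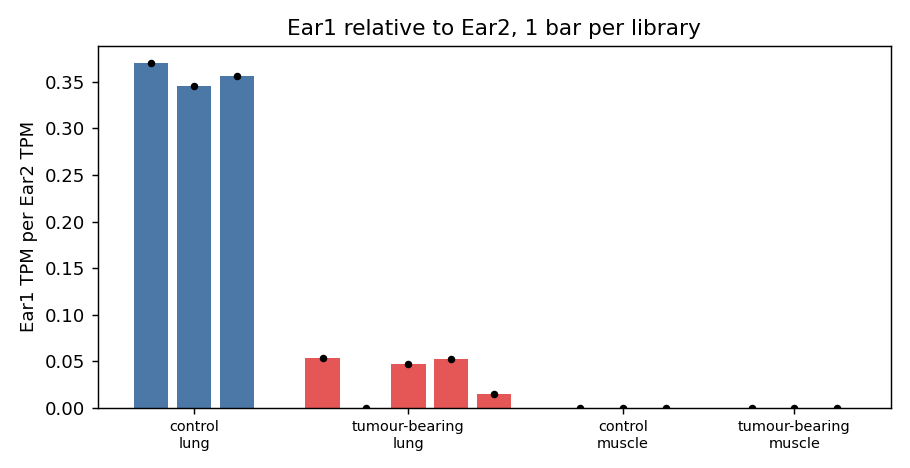
Ratio of Ear1 TPM to Ear2 TPM in each of the 14 libraries, with 1 bar and point per library and groups in colour. Control lung lies between 0.345 and 0.37, tumour-bearing lung at or below 0.0539, and all muscle libraries at 0 because Ear1 had no counts there.

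Siglecf was at 5.97, 8.16 and 8.43 CPM in control lung and at 2.54, 1.29, 0.767, 1.43 and 0.0979 CPM in tumour-bearing lung, with no overlap. Its log2 change was -2.61 (SE 0.70, adjusted p = 0.0101). Siglecf and both Ear genes are also eosinophil genes. The defining eosinophil markers were at or near 0: Epx, eosinophil peroxidase, reached at most 0.02 TPM in any lung library. The 6 eosinophil markers summed to 0.73 to 1.58 TPM in control lung, far below Ear2 but nearer to Siglecf (3.74 to 5.33 TPM). In tumour-bearing lung the sum was 0.89 to 14.2 TPM, beside 0.04 to 1.16 TPM of Siglecf. Its highest value, in library 4, was mostly Ear6, another ribonuclease of the family, at 13.75 TPM. The part of eosinophils in the levels of Siglecf, Ear1 and Ear2 was not tested. Of the 2 eosinophil markers tested, Ear6 was higher by 3.47 (SE 1.33, adjusted p = 0.0478) and Il5ra did not pass (2.23, adjusted p = 0.0862). Ear6 had 27 counts over the controls and 424 over the tumour-bearing libraries. It passed the filter on low counts mainly through the latter, so its direction is no result. The untested Epx, Prg2, Prg3 and Ccr3 had 3, 39, 6 and 18 counts in control and 1, 13, 4 and 12 in tumour-bearing lung. The call of Ear6 was lost without control 1 (adjusted p = 0.137), control 2 (0.0998), control 3 (0.125) or tumour-bearing library 2 (0.0534). It was also lost with RLE (0.0501) and upper-quartile scaling (0.053) and with limma on log2(TPM + 1) (0.97, adjusted p = 0.255). Without tumour-bearing library 4 the change of Ear6 was 1.52 (adjusted p = 0.0462).

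Plet1 was the member that rose. It was at 47.8, 53.2 and 52.0 CPM in control lung and at 226, 84.3, 68.3, 217 and 149 CPM in tumour-bearing lung. Tumour-bearing libraries 1 and 4 were the highest, 2 and 3 were close to the controls, and the groups did not overlap. The log2 change was 1.55 (SE 0.41, adjusted p = 0.00992). This call was lost with limma on log2(TPM + 1), where the change was 0.94 (adjusted p = 0.0634). The gut and liver epithelium markers named above were higher in the same libraries, and their part in the level of Plet1, a gene some epithelia also make, was not tested.

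Marco was very even in control lung, at 7.71, 7.51 and 7.43 CPM, and uneven in tumour-bearing lung, at 2.26, 0.754, 1.09, 13.4 and 2.89 CPM. Library 4 was above all controls and the other 4 were below them. With all libraries the log2 change was -0.89 (SE 0.82, adjusted p = 0.375). Without tumour-bearing library 4 it was -2.09 (adjusted p = 0.00576), so 1 library decides the call. It passed with limma on log2(TPM + 1) too, at -1.44 (adjusted p = 0.0376).

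Chil3 varied in both groups, at 260, 1040 and 1080 CPM in control lung and at 245, 324, 322, 1110 and 42.0 CPM in tumour-bearing lung. Control library 1 lay among the tumour-bearing values, and tumour-bearing library 4 lay among the higher controls, above them in TMM-scaled CPM and below them in TPM (861 beside 1106 and 1156). The log2 change was -0.96 (SE 0.82, adjusted p = 0.339), and without tumour-bearing library 4 it was -1.74 (adjusted p = 0.0666). Chil3 per Ear2, in TPM, was 4.26 ± 2.09 in control (n = 3) and 8.34 ± 4.06 in tumour-bearing lung (n = 5), and these ranges overlapped. Pparg was at 9.78, 11.2 and 10.9 CPM in control lung and at 15.6, 6.09, 13.1, 16.9 and 10.5 CPM in tumour-bearing lung. The controls lay within the tumour-bearing range, and the log2 change was 0.23 (SE 0.32, adjusted p = 0.56).

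Across the 5 tumour-bearing lung libraries the members did not keep a common order. Library 4 was the highest for 5 members (Marco, Chil3, Ear1, Ear2 and Pparg), yet it was the only one with 0 counts of Fabp1. Library 5 was the lowest for Chil3, Ear2 and Siglecf. Library 2 was the lowest for Marco, Ear1 and Pparg. The pair of members with the most similar profile over the 8 lung libraries was Ear2 and Siglecf, whose centred log2 CPM differed by 0.577 (root mean square). Plet1 and Pparg came next at 0.751.

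General macrophage markers give a yardstick for the members. Of 9 such markers, 4 fell (Csf1r, Adgre1, Mertk and Lyz2), none rose and 5 did not pass, with a median log2 change of -0.55. Mertk, a receptor for engulfing dying cells, fell by 3.32 (adjusted p = 2.68e-05), while Cd68, a lysosomal protein of phagocytes, had a change of 0.00 (adjusted p = 0.993). Their summed level went from 6240 to 6660 TPM to 173 to 780 TPM, a sum that includes Lyz2 (-3.95), which alveolar type 2 cells also express. The mean of the markers' log2 CPM was 1.22 lower in tumour-bearing lung. Lyz2 and Mertk, which fell most, are in this mean too. Without them it would have fallen less, and each member's difference relative to it would be lower. Taken relative to that mean, with no test, Fabp1 differed between groups by -5.55, Ear1 by -5.50, Siglecf by -1.93 and Ear2 by -1.12. The group means of Marco (-0.45) and Chil3 (-0.13) differed little on this scale, while Pparg (1.37) and Plet1 (2.61) were higher. Single libraries spread widely: Marco ran from -4.83 to -0.96 in tumour-bearing lung, beside -2.79 to -2.62 in control. For Chil3 the ranges were 1.83 to 5.41 and 2.46 to 4.4. The members did not shift as 1 block on this scale either.

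The other genes known from alveolar macrophages were called in both directions. Of 19 on that list, 6 fell, 5 rose and 8 did not pass, with a median log2 change of -0.24. These shares are near those of all genes tested (29.3% lower and 30.4% higher). Car4, a membrane carbonic anhydrase that capillary endothelium also carries, fell by 4.57 (SE 0.55, adjusted p = 0.000128). Krt79, a keratin, fell by 3.81 (SE 0.42, adjusted p = 7.67e-05). Itgax (CD11c, -1.68), the cholesterol exporter Abcg1 (-2.44), the lipase Lpl (-2.55) and the lipid droplet gene Cidec (-1.51) fell too. Risers were the epithelial keratin Krt19 (2.96), the fatty acid binding protein Fabp5 (2.14), the mannose receptor Mrc1 (1.23), the repressor Bhlhe40 (2.22) and the tetraspanin Cd9 (0.77). Their summed level was 1330 to 1420 TPM in control and 2120 to 4010 TPM in tumour-bearing lung. Krt19 alone went from 309 to 1730 TPM on average, and the other 18 genes summed to 1020 to 1120 TPM in control and 849 to 1770 TPM in tumour-bearing lung.

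Genes of the signals that set the identity of these cells changed in both directions in bulk lung. Bulk RNA does not tell which cells these changes were in, and the part of other lung cells was not tested. On the list of GM-CSF and TGF-beta signals and lineage factors, 7 of 15 fell, 4 rose and 4 did not pass, and the median was -0.55. Of all genes tested, 29.3% were lower and 30.4% higher. Csf2, the GM-CSF gene, rose by 2.53 (adjusted p = 0.0172), whereas the receptor chain Csf2ra fell (-1.66, adjusted p = 0.00429). Tgfbr2, a TGF-beta receptor, fell by 1.69 (SE 0.14, adjusted p = 2.07e-05) and Smad3, which carries its signal, rose by 1.33 (SE 0.16, adjusted p = 0.000135). Jak2 (0.77) and Tgfbr1 (0.56) rose, and Stat5b, which acts below the GM-CSF receptor, fell (-1.33). Without control 1, higher calls on this list numbered 2. The lineage factors Spi1 (PU.1, -1.20), Cebpa (-1.74), Cebpb (-1.26) and Rxra, the partner of PPAR-gamma (-0.69), all fell.

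While Pparg itself did not pass, 7 of 10 genes listed as PPAR targets and lipid handlers fell and none rose, with a median log2 change of -2.36. Pdk4, a kinase that restrains glucose oxidation, fell by 5.78 (SE 0.37, adjusted p = 5.03e-06). Cd36, a fatty acid and lipid scavenger receptor, fell by 5.51 (SE 0.43, adjusted p = 1.41e-05), from 758 to 11.1 TPM on average. Endothelium and adipocytes express several of these genes too, and 4 of 6 tested adipocyte markers fell (median -3.28). Of those that fell, Plin1 and Retn had 2 and 22 tumour-bearing counts. They passed the filter on low counts mainly through the controls, which fixed their direction. Abcg1, Lpl and Fabp4 stand on this list and on that of other alveolar macrophage genes.

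Among 21 relatives of the members, 17 were tested, of which 7 fell and 6 rose, with 3 higher calls left without control 2. Of the risers, Ear6, Chil6 and Fabp2 had 27, 2 and 7 counts over the 3 controls. They passed the filter on low counts mainly through the tumour-bearing libraries. Siglech had 22 counts over the tumour-bearing libraries and passed mainly through the controls. The direction of these genes is no result. In the Siglec family Siglech, of plasmacytoid dendritic cells, fell by 4.39 (adjusted p = 0.000493), and Siglec1, Siglece and Siglecg fell with Siglecf. Among the chitinase-like genes Chil1 (-3.83) and Chia1 (-5.45) fell and Chil6 rose (4.44, adjusted p = 0.0293), while Chil3 did not pass. Msr1, a scavenger receptor of the same broad class as Marco, rose by 1.92 (adjusted p = 0.000781). Ppard rose by 0.99 (adjusted p = 0.0139) and Ppara did not pass (-0.22).

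**Figure D3:**
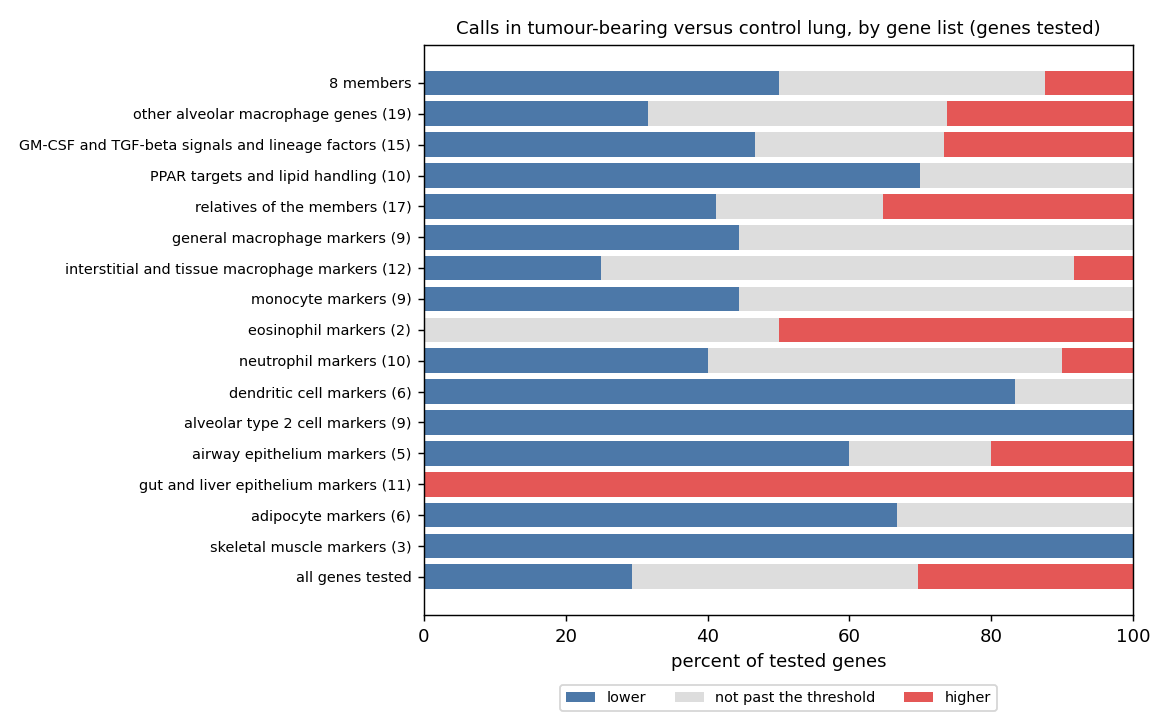
Share of tested genes called lower (blue), higher (red) or neither (grey) in tumour-bearing against control lung, for the 8 members, each gene list (number tested in brackets) and all genes. The members had 4 lower and 1 higher call of 8, alveolar type 2 markers 9 lower of 9, and gut and liver markers 11 higher of 11. Among the last, Apoa4, Cdx2, Fabp2, Fgb and Ttr could be tested only through their tumour-bearing counts.

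Markers of the other cells in lung changed to different degrees. All 9 markers of alveolar type 2 cells fell, with a median log2 change of -4.45, and their sum went from 39800 to 46000 TPM to 55.7 to 1460 TPM. Lpcat1, an enzyme of surfactant lipid synthesis, fell by 3.25 (adjusted p = 3.4e-06). Of 6 dendritic cell markers 5 fell (median -2.9, Zbtb46 by 2.85), and of 9 monocyte markers 4 fell (median -0.9, Nr4a1 by 3.71). Of 12 interstitial macrophage markers 3 fell and 1, Trem2, rose (median -0.5, Lyve1 by 3.94), where 29.3% of all genes were lower. On that list C1qa (0.89), C1qb (0.86) and C1qc (0.89) did not pass. Those interstitial counts moved most with single libraries, to 1 lower without control 2, control 3 or tumour-bearing library 5, and to 4 higher without the last. Neutrophil markers had 4 lower and 1 higher call of 10 (median -0.76), the riser being the chemokine receptor Cxcr2 (3.12). Airway epithelium markers had 3 lower and 1 higher call of 5, with Scgb3a2 down by 6.67. All 3 tested skeletal muscle markers fell, Ckm by 6.20, and the adipocyte marker Plin1 fell by 7.27. Ckm, Acta1 and Plin1 had 38, 32 and 2 counts over the tumour-bearing libraries. They passed the filter on low counts mainly through the controls, so their direction is no result. What part the loss of other lung tissue and the addition of tumour had in the members' levels was not tested.

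In gastrocnemius the members were scarce, and Chil3 and Ear2 were higher in tumour-bearing mice. Ear1, Fabp1 and Siglecf had 0 counts in all 6 muscle libraries, and a count of 0 allows up to 3. Marco had 3 counts in tumour-bearing library 1 and 0 elsewhere, and Plet1 had 1 to 11 counts per library. These 5 did not pass the filter on low counts. Of the 3 tested members, Chil3 and Ear2 were called higher and none lower, where 8.53% of the 14373 genes tested were higher and 6.75% lower. The 3 were those with enough counts, so they are not a sample of the 8, and Chil3 had enough only through the tumour-bearing group, which fixed its direction. All 3 had groups that did not overlap, as did 43.1% of all genes.

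Ear2 had 22, 13 and 11 counts in control muscle (0.473, 0.39 and 0.418 CPM) and 451, 210 and 87 counts in tumour-bearing muscle (9.15, 5.4 and 3.36 CPM). All tumour-bearing libraries stood well above the controls. The log2 change was 3.79 (SE 0.45, adjusted p = 0.00587), and the call held in all 13 settings tried. Ear1 stayed at 0 in each of these libraries. The ratio of Ear1 to Ear2 was thus 0 in muscle even at 451 counts of Ear2.

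Chil3 had 1 count in each control muscle library and 281, 35 and 23 counts in the tumour-bearing ones (5.7, 0.901 and 0.888 CPM). Library 1 was the highest, as it was for Ear2, and none overlapped the controls. The log2 change was 6.31 (SE 1.04, adjusted p = 0.0118), which rests on 3 control counts in all and depends on the prior count. Leaving out a single control ended the call each time, with adjusted p of 0.0554 without control 1, 0.0516 without control 2 and 0.07 without control 3, and it was lost with limma on log2(TPM + 1) (adjusted p = 0.125). Pparg had 38, 58 and 35 counts in control and 117, 79 and 154 in tumour-bearing muscle (0.817, 1.74 and 1.33 against 2.37, 2.03 and 5.95 CPM). Its groups were close but did not overlap, and the log2 change of 1.41 (SE 0.50) did not pass (adjusted p = 0.0808). It passed without tumour-bearing library 2 (adjusted p = 0.0372) and with DESeq2 (adjusted p = 0.0289).

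**Figure D4:**
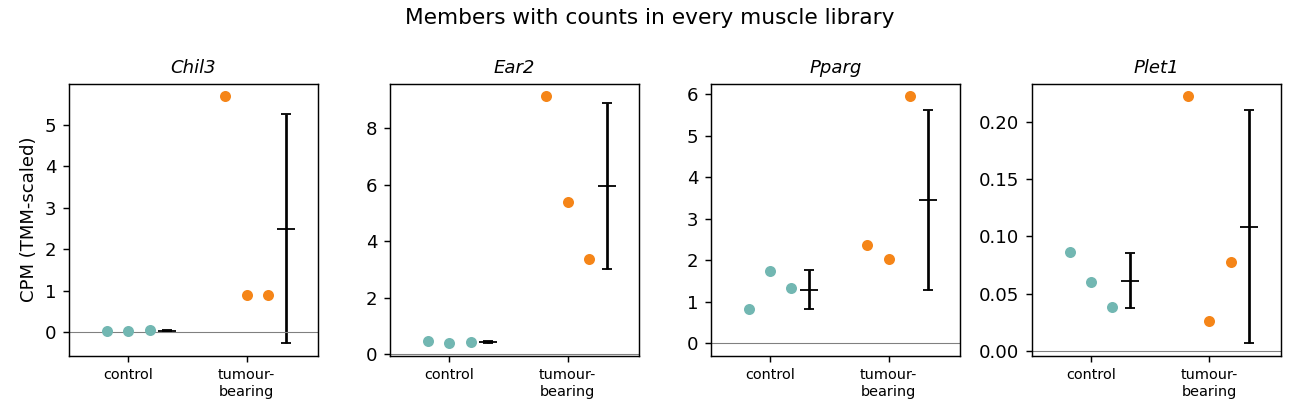
Level of the 4 members with at least 1 count in every muscle library, in TMM-scaled CPM on linear axes that differ between panels, with the mean ± SD in black. Ear2, Chil3 and Pparg are higher in all 3 tumour-bearing libraries, and Plet1 stays below 0.25 CPM throughout.

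Some neutrophil markers rose in the same muscles. The 3 that could be tested had 26 (S100a8), 31 (S100a9) and 9 (Retnlg) counts over the 3 controls and 182, 191 and 85 over the tumour-bearing libraries, so they passed the filter mainly through the latter and their shared direction is no result. They were higher, with S100a9 up by 2.48 (SE 0.43, adjusted p = 0.013) and S100a8 and Retnlg by 2.63 and 3.01, and the sum of the 10 markers went from 1.31 to 1.82 TPM to 8.11 to 13.1 TPM. Ly6g, a defining neutrophil gene, was at 0 in all 6 libraries. Without control 1, 2 or 3 none of the neutrophil or macrophage markers was called in muscle, and for S100a9 the adjusted p was then 0.0627, 0.0846 and 0.062. Eosinophil markers summed to at most 0.11 TPM, and Prg3 and Ear6 were at 0. Of 9 general macrophage markers only Cd68 rose (2.60, adjusted p = 0.0495, with overlapping groups), none fell, and 5 of 12 interstitial macrophage markers fell, among them Folr2 (-1.86, adjusted p = 0.0252) and Cx3cr1 (-3.15, adjusted p = 0.0267). No monocyte marker (of 5) and no dendritic cell marker (of 3) passed, with Nr4a1 at -0.93 (adjusted p = 0.0983) and Zbtb46 at -0.91 (adjusted p = 0.0899). The type 2 cell genes Sftpc, Sftpa1, Sftpd and Slc34a2 were at 0 in all muscle libraries, and of 3 tested Lpcat1 fell by 1.59. The part of these cells in the levels of Ear2 and Chil3 was not tested.

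The members' wider gene groups showed few calls in muscle, and none on these 4 lists held without control 1, 2 or 3. GM-CSF and TGF-beta genes had 3 higher and 0 lower calls of 14, which were Csf2rb (1.91, adjusted p = 0.011), its near copy Csf2rb2 (1.78), between which RSEM may split reads, and Rxra (1.02). PPAR targets had 1 higher call of 10, Pdk4 (1.90, adjusted p = 0.0438), which had fallen in lung. Other alveolar macrophage genes had 1 higher and 2 lower calls of 15, with Car4 higher (1.15), Il18 lower (-2.0) and Bhlhe41, a transcriptional repressor, down by 2.19 (adjusted p = 0.0141). The relatives had 1 higher and 1 lower call of 9, Ppard at 0.97 (adjusted p = 0.049) and Siglech lower by 4.57 (adjusted p = 0.0195). Siglech had 111 counts over the control and 5 over the tumour-bearing muscle libraries. It passed the filter on low counts through the controls, so its direction is no result. Adipocyte markers split, with Plin4 up by 2.43 and Plin1 down by 3.09, and no skeletal muscle marker of 4 passed (Mb at -1.51, adjusted p = 0.0553).

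Whether the change differed between tissues was tested directly, in 1 fit of all 14 libraries, where 35.6% of 19834 genes passed. Ear2 differed by -5.85 (lung minus muscle, log2, SE 0.80, adjusted p = 8.14e-05) and Chil3 by -7.38 (SE 1.72, adjusted p = 0.00429). The muscle part of the Chil3 value rests on 3 control counts in all and depends on the prior count. For Pparg (-1.17, adjusted p = 0.135) and Plet1 (0.70, adjusted p = 0.645) the difference did not pass. Nor did that of Marco (-5.38, SE 3.6, adjusted p = 0.269), a value that rests on 3 muscle counts, all in 1 tumour-bearing library. With no counts in muscle, Ear1, Fabp1 and Siglecf allow no such comparison. In tumour-bearing mice the mean level of Siglecf was still at least 14.6-fold higher in lung than in muscle. That of Ear1 was at least 7.62-fold higher, while Fabp1 in lung had come down to the floor. Single lung libraries did not all keep these differences. Siglecf had 4 counts in tumour-bearing library 5, and Ear1 had 0 in library 2 and 2 in library 5.

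**Figure D5:**
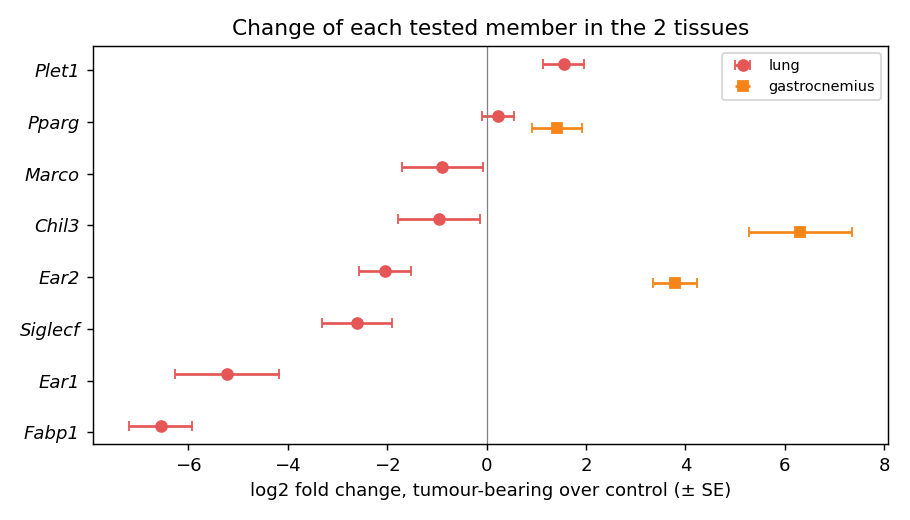
Log2 fold change (± SE) of tumour-bearing over control for each member in lung (red circles, 8 tested) and gastrocnemius (orange squares, 3 tested), ordered by the lung value. Ear2 and Chil3 lie on opposite sides of 0 in the 2 tissues, and Fabp1 has the lowest lung value at -6.56.

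For each member, the 2 genes with the most similar profile over the 8 lung libraries were sought among 11400 genes with a mean of at least 5 CPM, by the root mean square difference of centred log2 CPM. Pparg lay closest to its match, Rundc1 (0.151). Ear2 was matched by Cyp4v3 (0.195) and Bin2 (0.285), and Plet1 by Ngef (0.203) and Mpi (0.213). Siglecf was matched by Atp8a1 (0.303) and the B cell receptor gene Cd79b (0.452), Marco by Arc (0.356) and F3 (0.555), and Fabp1 by Nr4a3 (0.407) and Plagl1 (0.492). Ear1 (Fam183b at 0.669, Adcy8 at 0.672) and Chil3 had the most distant matches. Those of Chil3 were F7 (0.707) and Ctsk (0.751), both of them on the list of other alveolar macrophage genes.

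Upstream sequence of the members was searched for 5 motifs on both strands, over the 250 bases before each RefSeq start (10 windows, as Pparg has 3 starts) and over 32851 such windows of the genome. The nuclear receptor element AGGTCA was in windows of Fabp1, Plet1 and Pparg, and in 14% of all windows. An exact direct repeat of it with 1 base between, the form to which PPAR-gamma binds with RXR, was in no member window and in 0.0335% of all. Repeats with a mismatch were not sought, so this search cannot tell whether a member lacks such an element. The C/EBP motif TTGCNNAA was in windows of Ear1, Ear2, Fabp1, Plet1 and Pparg, and in 9.56% of all. The PU.1 core GAGGAAGT (2.44% of all) and the E-box CACGTG (6.02%) were in none. Fabp1 and Plet1, which moved in opposite directions in lung, both held that element and the C/EBP motif, in capitals here. The Fabp1 window is chr6:71199629-71199878 and the Plet1 window chr9:50494275-50494524, both on the plus strand of GRCm38.p6.
Fabp1 upstream: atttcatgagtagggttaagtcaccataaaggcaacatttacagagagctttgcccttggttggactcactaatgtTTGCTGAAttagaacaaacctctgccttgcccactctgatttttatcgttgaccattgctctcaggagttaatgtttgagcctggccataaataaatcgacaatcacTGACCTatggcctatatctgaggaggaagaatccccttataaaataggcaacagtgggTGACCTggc
Plet1 upstream: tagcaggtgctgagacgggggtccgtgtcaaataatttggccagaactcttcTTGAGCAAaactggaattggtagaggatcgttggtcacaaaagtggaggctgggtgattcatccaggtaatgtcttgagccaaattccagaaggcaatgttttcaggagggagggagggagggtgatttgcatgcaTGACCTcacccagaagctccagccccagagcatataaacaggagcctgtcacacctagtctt
AGGTCA appears here as TGACCT, its reverse complement. A match of letters is not evidence of binding.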

How the data were processed

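RNA from 14 libraries was measured with a strand-preserving kit and reads of 100 bases, per the labels. The submitters' processing notes name Trim Galore, STAR 2.7.9a and RSEM 1.3.3, with no settings and no genome build given in the sources used here. The authors deposited, for each library, RSEM expected counts, estimates in which reads that match several genes are divided among them. TPM, normalized for effective transcript length and library total, were deposited by the authors in the same tables. Symbols came from a table of gene identifiers that matched 52083 of 55416 genes (94.0%). Totals ran from 47947363 to 61087315 counts in lung and from 32476194 to 44169410 in muscle, and a count of 0 allows 3 counts, or 0.0491 to 0.0924 CPM, for counting error only.

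Expected counts were rounded and each tissue was fitted alone in R 4.3.3 with edgeR 4.0.16 (TMM, filterByExpr, glmQLFit and the two-sided glmQLFTest), with Benjamini-Hochberg adjustment over all genes tested and a threshold of 0.05. All adjusted p-values are from this test unless another tool is named. The SE is the log2 change divided by the square root of F. Tissue differences came from 1 fit of the 4 groups. Levels relative to macrophage markers used log2 CPM with 0.5 added to each count. The scripts were tested on simulated data. The members and the 15 lists (146 genes) were chosen with earlier results of these data known. Named by rule were all members, the 2 genes of smallest p in each of 4 pathway lists, 1 in each of 11 marker lists, and the 2 most similar genes of each member. Other names were chosen after their values were seen. Some genes that the rule named are not reported here. Alternatives were RLE and upper-quartile scaling, DESeq2 1.42.0, no filter, limma 3.58.1 on log2(TPM + 1), a replicate block, a fit of all libraries and leaving out each library.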

Additional observations from a re-analysis of the deposited data

Results flagged for a closer look

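In the 5 tumour-bearing lung libraries, library 4 lay far from the others for 2 members. Its Marco level was 13.4 CPM, and the gap to the next library took a share of 0.831 of the group's whole range. Its Chil3 level was 1110 CPM, with a gap share of 0.736. Both shares, taken on linear CPM, exceeded Dixon's 95% critical value for 5 samples, among 8 member groups checked. Chance passes about 1 in 20 only where values are normally distributed. In this group Marco spread over 17.7-fold and Chil3 over 26.4-fold, so that rate may not hold. The shares depend on the scale, and none on a log scale is given here. The same library held the highest Ear1, Ear2 and Pparg values and 0 counts of Fabp1.

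The change with tumour differed between lung and muscle for 2 members by the interaction in edgeR's quasi-likelihood test. The log2 changes of Chil3 differed by -7.38 (SE 1.72, adjusted p = 0.00429), being uncalled in lung and higher in 3 of 3 tumour-bearing muscle libraries. Its adjusted p ran up to 0.0702 over the alternatives, with limma on log2(TPM + 1). The muscle part of the Chil3 difference rests on 3 control counts in all. In the muscle fit Chil3 passed the filter on low counts only through the tumour-bearing group, which fixed its direction there. Ear2 differed by -5.85 (SE 0.80, adjusted p = 8.14e-05), lower in 5 of 5 tumour-bearing lung libraries and higher in 3 of 3 tumour-bearing muscle libraries. Its adjusted p stayed at or below 0.000694 over the alternatives.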

How the results depend on the processing

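In lung, the calls of Fabp1, Ear1, Ear2 and Siglecf held in all 15 settings, with adjusted p at most 0.000658, 0.0102, 0.0282 and 0.033. Pparg reversed to -0.24 with limma on log2(TPM + 1), uncalled, a setting that moved the median of all genes to -0.23. In muscle, 2196 genes were called, against 3559 with DESeq2, 4031 with no filter, 415 with limma on log2(TPM + 1) and 3459 in the fit of all 14 libraries. Leaving out 1 library gave 106 (without control 3) to 4513 (without tumour-bearing 2) genes, with 243 and 141 without controls 1 and 2, and 1432 and 1129 without tumour-bearing libraries 1 and 3. Muscle members called were 1 with limma on log2(TPM + 1) and ran from 1 to 3 when 1 library was left out, beside 2 with all. Upper-quartile scaling moved the muscle median of all genes from -0.03 to -0.25. For the difference between tissues, 4 members passed with limma on log2(TPM + 1) beside 2, but not the same ones: Ear1, Fabp1 and Siglecf, all at 0 in muscle, were added and Chil3 was lost (-2.94, adjusted p = 0.0702). Without TMM scaling, control lung levels were 8.26 CPM for Marco, 55.8 for Plet1 and 11.6 for Pparg, beside 7.55, 51.0 and 10.6. The cause of these shifts was not tested.

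Replicate numbers recur across groups, so a fit with the number as a replicate block was made. Same-numbered libraries did not deviate together throughout (correlations of -0.000832 to 0.0577 in lung and -0.046 to 0.366 in muscle), so the numbers were not taken to pair samples. Different-numbered libraries ran from -0.112 to 0.0838 in lung and from -0.405 to 0.0727 in muscle. The muscle pairs numbered 1 (0.356) and 3 (0.366) stood above that range, and the pair numbered 2 (-0.046) did not. The replicate block called 3303 genes in muscle and 10298 in lung. Plet1 was not called with it (1.09, adjusted p = 0.0637), and Marco (-2.61, adjusted p = 0.00513) and Chil3 (-1.19, adjusted p = 0.0466) were. In muscle, 5 members had too few counts to test.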
